A study of Capra hircus with 6 samples.

Results

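The circadian clock genes described here are 10 genes chosen by name: the activators CLOCK and ARNTL (the goat entry for BMAL1), the repressors PER1, PER2, PER3, CRY1, CRY2 and BHLHE41, and the output factors DBP and TEF. The choice was made with earlier results of these data known. All 10 were found among the 17504 genes of the expression tables by their NCBI GeneID. Whole-ovary RNA was sequenced from 3 Jintang black goats, which the labels call prolific, and 3 Tibetan goats, which the labels call non-prolific. All were described as being in the follicular phase, the days before ovulation. Each library is the ovarian RNA of 1 goat, and the goats of both breeds are named by breed and number, as in the labels. The labels state no age, hour of tissue collection or lighting. The question asked of the data was whether the expression of the clock genes differed between the breeds.

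The circadian clock is a feedback loop of transcription that runs in nearly every mammalian cell. CLOCK and ARNTL bind DNA together at E-box elements and switch on the PER and CRY genes, whose proteins return to the nucleus and repress CLOCK and ARNTL. In most rodent tissues studied over the day, ARNTL transcripts peak when PER, DBP and TEF transcripts are low. In the rodent ovary the clock is known from granulosa, theca and luteal cells, where luteinizing hormone can set its phase.

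FPKM values count fragments per kilobase of a transcript's length, relative to all fragments mapped in that library, so that levels can be set beside each other between genes. The 6 libraries summed to between 602255 and 682801 FPKM. Their absolute depth is unknown, and the spacing of low values put the deepest library at 1.11 times the relative depth of the shallowest. A filter of 1 FPKM in 3 or more libraries kept 13067 genes, among them all 10 clock genes. Libraries did not separate by breed on the first principal component, which held 45.6% of the variance, where Jintang 1 (38.2) and Jintang 2 (66.8) lay at one end and Jintang 3 (-24.8) lay between Tibetan 1 (-57.2) and Tibetan 3 (9.55). Results are therefore also given without Jintang 1 and Jintang 2. This choice was made after seeing the data and keeps the Jintang ovary nearest the Tibetan ones on this component. Smaller breed differences without Jintang 1 and Jintang 2 thus follow in part from the choice.

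The clock genes fell into a high and a low set by level. In every ovary DBP, TEF, PER1 and CRY2 all stood above the other 6 genes, and these 4 genes held between 72.1% and 83.3% of the summed FPKM of the 10. DBP averaged 48.0 ± 26.2 FPKM over the 6 goats, TEF 40.2 ± 18.7, PER1 30.9 ± 18.1 and CRY2 18.6 ± 6.24 FPKM (SD, n = 6). Each of these 4 exceeded the next in 5 or 6 of the 6 goats, although the ranges of DBP, TEF, PER1 and CRY2 overlapped. The low set followed with BHLHE41 at 7.60 ± 3.71 FPKM, ARNTL at 6.52 ± 2.30, PER2 at 5.66 ± 4.59, CLOCK at 5.21 ± 0.794, PER3 at 4.70 ± 2.88 and CRY1 at 3.95 ± 1.81 FPKM. Within the low set each gene exceeded the next in only 2 to 4 goats, so that no neighbours in this order differed beyond their spread.

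**Figure D1:**
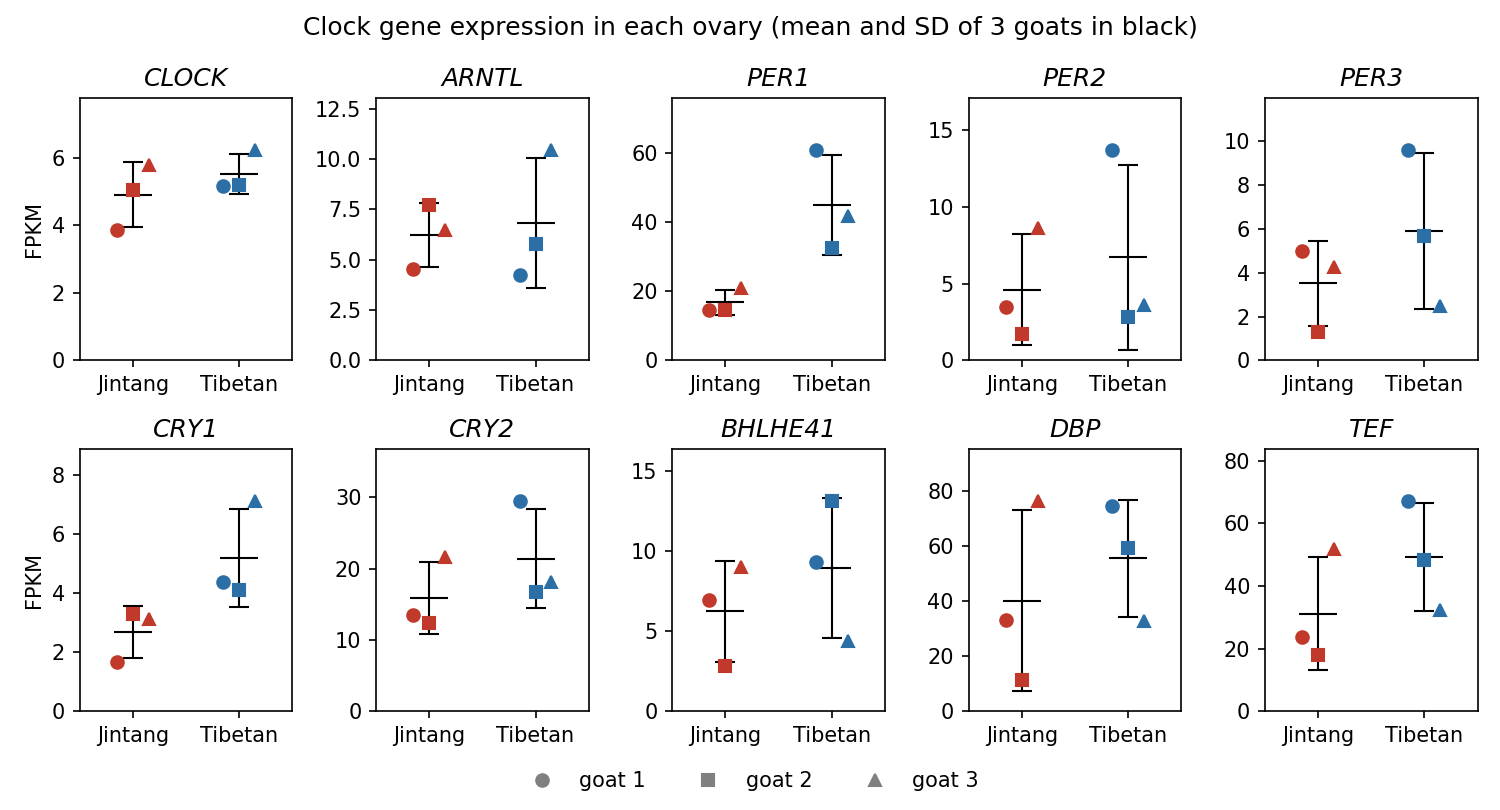
FPKM of each clock gene in each ovary, with a panel per gene, Jintang goats in red left of Tibetan goats in blue, marker shape giving the goat number, and the mean and SD of 3 goats in black. Jintang and Tibetan ovaries do not overlap for PER1 and CRY1 and overlap for the other 8 genes.

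CLOCK, the activator with histone acetyltransferase activity, had 3.87, 5.04 and 5.78 FPKM in Jintang 1, 2 and 3, against 5.17, 5.19 and 6.21 FPKM in Tibetan 1, 2 and 3. Its values were close to each other in all goats, and 8.79% of the genes tested had a smaller range over the 6 ovaries on the log2 scale. ARNTL, its partner, had 4.52, 7.71 and 6.46 FPKM in Jintang 1, 2 and 3, against 4.22, 5.76 and 10.4 FPKM in Tibetan 1, 2 and 3. Tibetan 3 and Jintang 2 were the highest and Tibetan 1 and Jintang 1 the lowest, so that each breed held a high and a low ovary. Differences were taken between mean log2(FPKM + 1) values, Jintang minus Tibetan. The added 1 shrinks the fold changes of weakly expressed genes. For CLOCK the difference was -0.16 (95% interval -0.79 to 0.48, limma adjusted p = 0.902) and for ARNTL -0.06 (-0.90 to 0.78, adjusted p = 0.972). The sign for ARNTL turned to 0.05 with median-ratio scaling, to 0.13 without Jintang 1 and to 0.26 without Tibetan 3.

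PER1, the period gene that also responds quickly to cyclic AMP and glucocorticoids, had the largest estimated breed difference of the 10. It had 14.7, 14.7 and 21.0 FPKM in Jintang 1, 2 and 3, against 60.7, 32.5 and 41.8 FPKM in Tibetan 1, 2 and 3. The breeds did not overlap, and the Jintang mean of 16.8 ± 3.65 FPKM was 0.373 times the Tibetan mean of 45.0 ± 14.4 FPKM (SD, n = 3 each). The log2 fold change was -1.34 (SE 0.31, 95% interval -2.06 to -0.63), with a limma unadjusted p of 0.00245 that stood 25th among 13067 genes. It did not pass after adjustment over all genes (limma adjusted p = 0.743). No gene of the 13067 passed in either direction (0% higher and 0% lower at an adjusted p under 0.05), and 806 had an unadjusted p under 0.05. In bulk ovary, fewer cells that express a gene and less RNA per cell cannot be told apart, here and in what follows. Leaving out any 1 library kept PER1 between -1.55 and -1.11 with adjusted p from 0.198 to 0.999, and Jintang 3 alone against the Tibetan goats gave -1.02 (adjusted p = 1.00).

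PER2, whose protein scaffolds the repressor complex, had 3.47, 1.73 and 8.63 FPKM in Jintang 1, 2 and 3, against 13.7, 2.81 and 3.63 FPKM in Tibetan 1, 2 and 3. Tibetan 1 and Jintang 3 were high and the other 4 ovaries low, with a 7.90-fold span from the lowest to the highest goat and full overlap of the breeds. PER3, the period gene that is dispensable for rhythm in mice, had 4.97, 1.30 and 4.25 FPKM in Jintang 1, 2 and 3, against 9.57, 5.66 and 2.47 FPKM in Tibetan 1, 2 and 3. Jintang 2 and Tibetan 3 were its lowest ovaries, one in each breed. Neither gene passed the test (log2 fold change -0.38 for PER2, limma adjusted p = 0.893, and -0.59 for PER3, adjusted p = 0.795). The sign for PER2 turned to 0.04 without Jintang 2 and to 0.22 without Tibetan 1, and PER3 ran from -1.01 without Tibetan 3 to -0.16 without Jintang 2. PER1 made up 63.5%, 82.9% and 62.0% of the summed PER FPKM in Jintang 1, 2 and 3, against 72.3%, 79.3% and 87.3% in Tibetan 1, 2 and 3. It was the main PER transcript in each ovary, and its share overlapped between the breeds.

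CRY1, the stronger and later-acting cryptochrome in mouse cells, had 1.69, 3.29 and 3.13 FPKM in Jintang 1, 2 and 3, against 4.40, 4.10 and 7.11 FPKM in Tibetan 1, 2 and 3. Together with PER1 it was 1 of 2 clock genes with every Jintang ovary below every Tibetan ovary, an order found in 6.70% of all genes tested, while 3.20% had every Jintang ovary above. The difference was -0.74 (95% interval -1.52 to 0.03, limma adjusted p = 0.743). CRY2, the other cryptochrome repressor, had 13.5, 12.4 and 21.7 FPKM in Jintang 1, 2 and 3, against 29.4, 16.7 and 18.1 FPKM in Tibetan 1, 2 and 3. Jintang 3 lay above both Tibetan 2 and Tibetan 3, so the breeds overlapped, and the difference was -0.41 (limma adjusted p = 0.784), or -0.17 without Tibetan 1. CRY2 was the larger part of the cryptochrome transcripts in each goat, at 88.9%, 79.0% and 87.4% in Jintang 1, 2 and 3, against 87.0%, 80.3% and 71.8% in Tibetan 1, 2 and 3.

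BHLHE41 (also called DEC2), which competes with CLOCK and ARNTL at E-boxes, had 6.95, 2.81 and 9.0 FPKM in Jintang 1, 2 and 3, against 9.34, 13.1 and 4.42 FPKM in Tibetan 1, 2 and 3. Jintang 2 and Tibetan 3 were again the 2 lowest ovaries. The difference of -0.46 did not pass (limma adjusted p = 0.816), and it ran from -0.85 without Tibetan 3 to -0.05 without Jintang 2.

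DBP and TEF are PAR bZIP transcription factors, driven by the clock, that pass its rhythm on to genes with D-box elements. DBP had 33.1, 11.5 and 76.3 FPKM in Jintang 1, 2 and 3, against 74.8, 59.5 and 32.7 FPKM in Tibetan 1, 2 and 3. Its highest and its lowest ovary were both Jintang, and its within-breed SD on the log2 scale (1.03) exceeded that of 94.2% of the genes tested. TEF had 23.6, 18.2 and 51.9 FPKM in Jintang 1, 2 and 3, against 67.0, 48.2 and 32.4 FPKM in Tibetan 1, 2 and 3. Both genes were high in Tibetan 1, Tibetan 2 and Jintang 3 and low in Jintang 2, Jintang 1 and Tibetan 3. Neither passed, with log2 fold changes of -0.74 for DBP (95% interval -2.19 to 0.71, limma adjusted p = 0.788) and -0.72 for TEF (-1.72 to 0.28, adjusted p = 0.743). Without Jintang 3 the differences were -1.38 for DBP and -1.15 for TEF (adjusted p = 0.319 and 0.268), and without Jintang 2 they were -0.06 and -0.42.

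**Figure D2:**
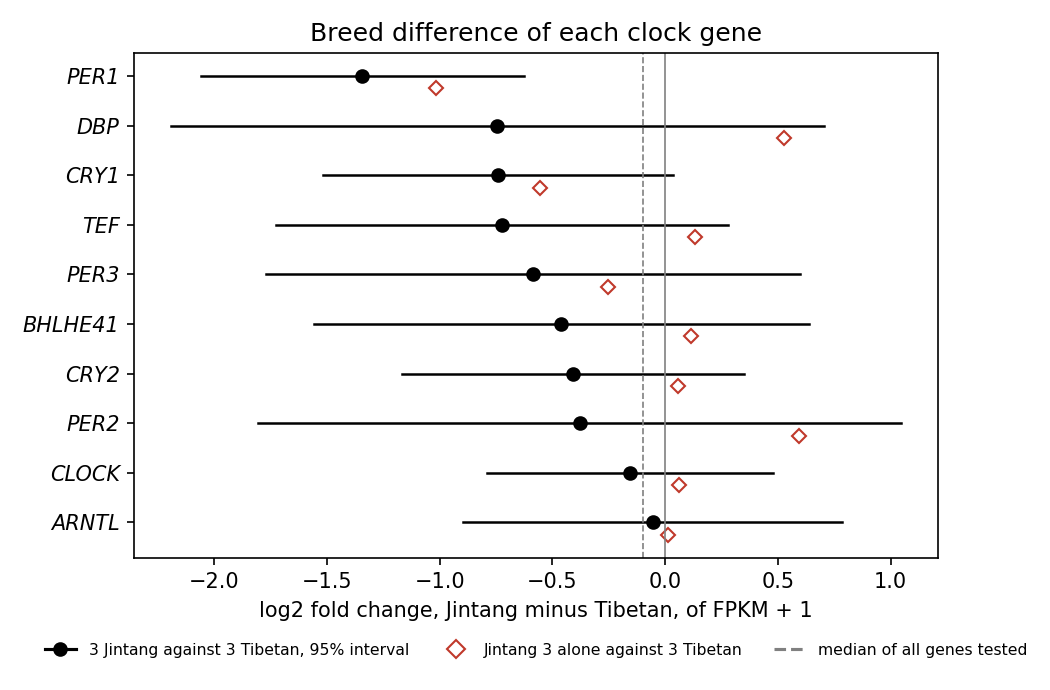
Log2 fold change of FPKM + 1, Jintang minus Tibetan, for each clock gene, with black points and 95% intervals for 3 goats against 3, open red diamonds for Jintang 3 alone against the 3 Tibetan goats, and a dashed line at the median of all genes tested (-0.10). All 10 black points lie below 0, and 3 of the 10 diamonds do.

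All 10 clock genes had a log2 fold change below 0, against 59.0% of all genes tested, and their median was -0.52, against -0.10 over all genes. The 10 were chosen with earlier results of these data known, so their shared sign is described here and is not a test. Of 26 further clock genes tested 16 were below 0. An unadjusted p under 0.05 with a lower Jintang mean was found for 1 of the 10 (PER1), against 3.35% of all genes, and with a higher Jintang mean for none of the 10, against 2.82% of all genes. Median-ratio scaling moved the median of all genes to 0.02 and the share of all genes below 0 to 48.05%. Under it 9 of the 10 clock genes were below 0, with a median of -0.42, and 9 lay below the median of all genes, as they did before scaling. Jintang 3 alone, set against the 3 Tibetan goats, left 3 clock genes below 0 (PER1, CRY1 and PER3) and a median of 0.06. Of all genes, 51.52% were then below 0, with a median of -0.01. In that comparison DBP stood at 0.53 and PER2 at 0.60. The lowest of the 6 ovaries was Jintang 2 for 7 of the 10 clock genes, against 25.9% of all genes, and the highest was Tibetan 1 for 5 of the 10, against 21.9% of all genes.

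Goats of the same breed differed most in DBP, PER2 and PER3 among the clock genes, with within-breed SDs of 1.03, 0.99 and 0.78 on the log2 scale. The median within-breed SD of the 10 genes was 0.56, against 0.42 for all genes tested. It was 0.37 for both PER1 and CRY1, more than in 41.6% and 41.1% of the genes tested, and 0.19 for CLOCK, the smallest. The range over all 6 ovaries, which includes any breed difference, had a median of 1.86 for the 10 genes, against 1.15 for all genes. The ratio of DBP to ARNTL FPKM, an output gene over an activator, was 7.33, 1.49 and 11.8 in Jintang 1, 2 and 3, against 17.7, 10.3 and 3.14 in Tibetan 1, 2 and 3. It spanned 11.9-fold and put goats of the breeds in mixed order, with Tibetan 1 highest and Jintang 2 lowest. The ratio of PER3 to ARNTL spanned 13.4-fold between the same 2 goats, at 1.10, 0.169 and 0.658 in Jintang 1, 2 and 3, against 2.27, 0.983 and 0.237 in Tibetan 1, 2 and 3.

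**Figure D3:**
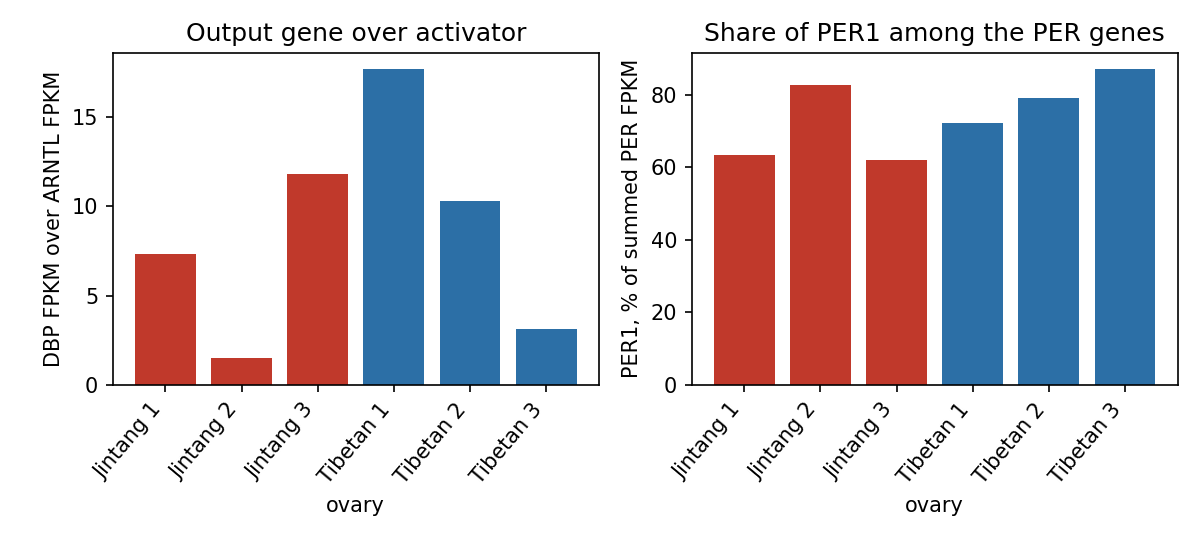
Left, DBP FPKM over ARNTL FPKM in each ovary, and right, the share of PER1 in the summed FPKM of PER1, PER2 and PER3 in percent, with Jintang in red and Tibetan in blue. The DBP to ARNTL ratio runs from 1.49 in Jintang 2 to 17.7 in Tibetan 1, and both quantities overlap between the breeds.

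Across the 6 goats, 34 of the 45 pairs of clock genes correlated positively on the log2(FPKM + 1) scale and 11 negatively. Pearson's r had an exact permutation p under 0.05 in 8 pairs, all positive, and none of the 45 passed after Benjamini-Hochberg adjustment by Pearson or Spearman correlation. The pair with the smallest p was DBP and TEF, with r = 0.94 (exact permutation p = 0.0056, adjusted 0.156) and rho = 0.89 (exact permutation p = 0.0333, adjusted 0.30). Without Jintang 2 and Jintang 3, the libraries farthest from the DBP median, r was 0.95. PER2 and CRY2 had r = 0.94 (exact permutation p = 0.0069, adjusted 0.156) and rho = 0.94 (exact permutation p = 0.0167, adjusted 0.30), and r = 0.65 without Jintang 3 and Tibetan 1. The remaining positive pairs under 0.05 were CRY2 with TEF, PER2 with TEF, BHLHE41 with DBP, PER3 with BHLHE41, PER3 with DBP and CRY1 with CLOCK, with r from 0.82 to 0.91. Of these, the relation of CRY1 to CLOCK rested on Jintang 1 and Tibetan 3, since r was 0.85 with all goats (exact permutation p = 0.0472, adjusted 0.205, rho = 0.60 with exact permutation p = 0.242, adjusted 0.514) and -0.50 without them. Without the 2 libraries farthest from the median of the first gene, r was 0.44 for PER3 with DBP (0.85 with all goats, without Jintang 2 and Tibetan 1) and 0.47 for PER2 with TEF (0.82, without Jintang 3 and Tibetan 1). For CRY2 with TEF, DBP with BHLHE41 and PER3 with BHLHE41 it was between 0.78 and 0.87.

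Of the 11 negative pairs 7 were those of ARNTL, the activator, with repressors and outputs. ARNTL and PER3 had r = -0.80 (exact permutation p = 0.0528, adjusted 0.205) and rho = -0.89 (exact permutation p = 0.0333, adjusted 0.30). Without Jintang 2 and Tibetan 1 r was -0.91, and with the breed means taken out it was -0.92. The ovaries with the most ARNTL, Tibetan 3 and Jintang 2, had the least PER3 and BHLHE41. For PER2, BHLHE41, DBP and TEF with ARNTL r lay between -0.61 and -0.37. For CRY2 it was -0.30, and 0.24 without Tibetan 1. For PER1 it was -0.04, and it ran from -0.54 to 0.56 with 1 library left out. CLOCK and CRY1 had r = 0.68 and 0.62 with ARNTL, and 0.06 and -0.85 without Jintang 1 and Tibetan 3. With the breed means taken out the values were 0.73 and 0.89. With 1 library left out r ran from 0.47 to 0.82 for CLOCK and from 0.13 to 0.88 for CRY1.

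**Figure D4:**
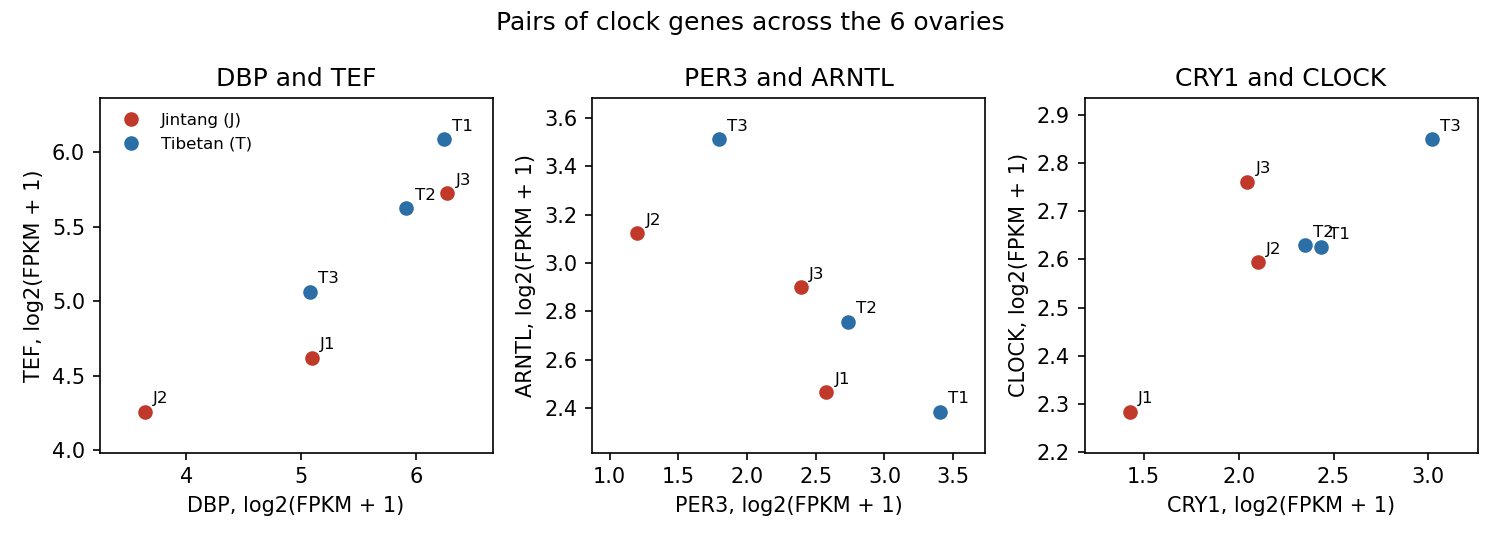
Log2(FPKM + 1) of 3 pairs of clock genes, 1 point per ovary, Jintang in red (J) and Tibetan in blue (T) with the goat number. DBP and TEF are high in the same ovaries (r = 0.94), ARNTL is lower where PER3 is higher (r = -0.80), and the relation of CRY1 and CLOCK (r = 0.85) rests on Jintang 1 and Tibetan 3.

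A wider set of 6 clock lists, covering activators, repressors, the REV-ERB and ROR receptors, bZIP output factors, enzymes and ligases of protein turnover, and output genes, held 28 further genes, 26 of them tested. None passed the limma test, and 2 of the 26 had an unadjusted p under 0.05, a share near the 6.17% of all genes. A log2 fold change below 0 was found for 16 of the 26, near the 59.0% of all genes, and their median was -0.27, against -0.10. Jintang 2 was the lowest ovary for 10 of these 26, against 25.9% of all genes, and Tibetan 1 the highest for 11, against 21.9%. HLF, the PAR bZIP factor related to DBP and TEF, had 3.55, 2.52 and 11.5 FPKM in Jintang 1, 2 and 3, against 20.7, 12.9 and 9.92 FPKM in Tibetan 1, 2 and 3 (log2 fold change -1.35, limma adjusted p = 0.743). It was lowest in Jintang 1 and Jintang 2, as TEF was, and Jintang 3 alone against the Tibetan goats gave -0.25. NOCT, the deadenylase-related nocturnin, ran the other way, with 8.59, 6.05 and 2.47 FPKM in Jintang 1, 2 and 3, against 1.82, 1.54 and 2.16 FPKM in Tibetan 1, 2 and 3. Its breeds did not overlap, but the test was not passed (1.12, limma adjusted p = 0.743), and the difference was 0.29 with Jintang 3 alone.

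NR1D1 (REV-ERB alpha), which represses ARNTL, had 16.4, 9.09 and 31.5 FPKM in Jintang 1, 2 and 3, against 46.0, 25.4 and 11.7 FPKM in Tibetan 1, 2 and 3. It was lowest in the 2 ovaries with the most ARNTL and highest in the ovary with the least, and it is named here after its values were seen. RORA, a receptor that activates ARNTL, had a difference of 0.36 without overlap of the breeds (limma adjusted p = 0.773). NPAS2, which can replace CLOCK, had a difference of 0.17 (adjusted p = 0.898). Among turnover genes FBXL21, a ubiquitin ligase subunit for cryptochromes, had a difference of -0.71 and HUWE1, another ubiquitin ligase, -0.37 (adjusted p = 0.758 and 0.777), and among outputs PPARA, a fatty acid receptor, had -0.84 (adjusted p = 0.743). With 1 library left out FBXL21 lay between -1.17 (without Tibetan 3) and -0.45 (without Jintang 1), and it was -1.63 with 0.1 FPKM added in place of 1. HUWE1 lay between -0.56 and -0.20 and PPARA between -1.26 and -0.60, both lowest without Jintang 3 and highest without Jintang 1. RORB and ARNTL2 did not reach the filter on low values.

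**Figure D5:**
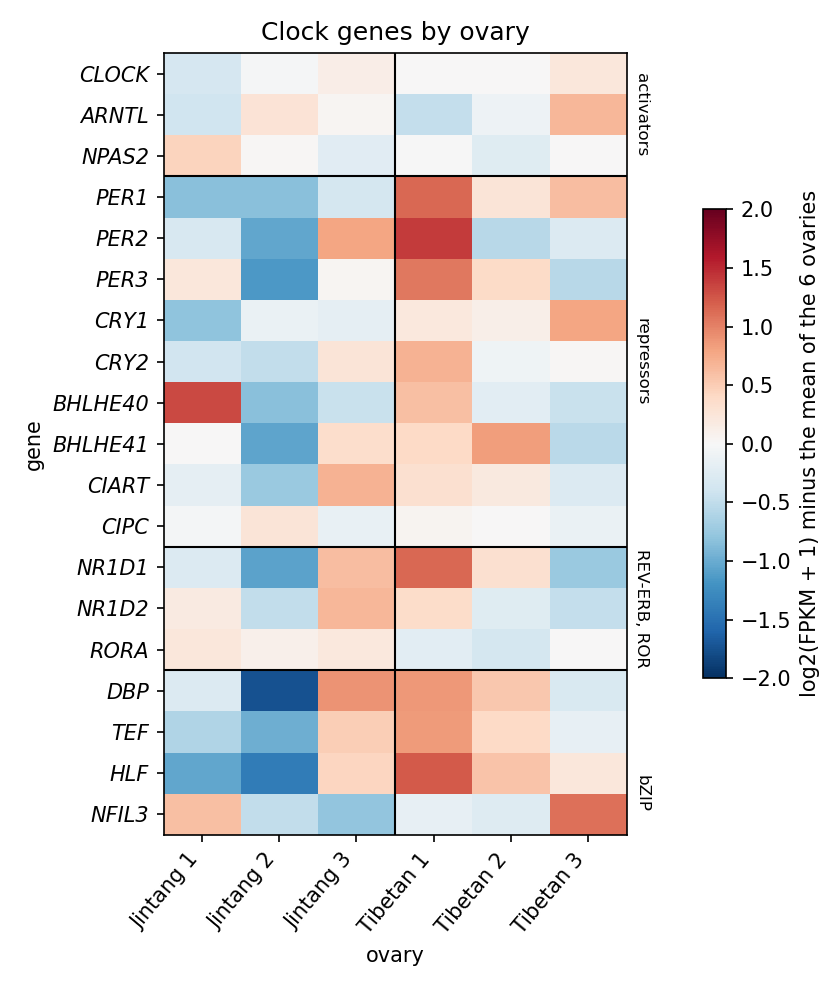
Log2(FPKM + 1) of clock genes in each ovary minus the mean of the 6 ovaries, red above and blue below it, with Jintang ovaries left of Tibetan ovaries and genes grouped by role. Jintang 2 is blue and Tibetan 1 red for most repressors and for DBP, TEF and HLF, while Jintang 3 is red, as Tibetan 1 is, for DBP, TEF and NR1D1.

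PER1 is also an immediate-early and stress-responsive gene, so 3 lists of such genes were set beside it. Of 9 heat-shock genes tested 7 were below 0, with a median log2 fold change of -0.78, against 59.0% of all genes below 0 and a median of -0.10. In 4 of the 9 every Jintang ovary was below every Tibetan ovary, against 6.70% of all genes. HSPA6, an inducible HSP70, had 2.90, 1.72 and 3.44 FPKM in Jintang 1, 2 and 3, against 16.6, 13.1 and 15.4 FPKM in Tibetan 1, 2 and 3 (-2.14, limma adjusted p = 0.343). The co-chaperone gene DNAJB1 and the inducible HSP70.1 stood at -1.22 and -1.97 (adjusted p = 0.743 for both), all Jintang ovaries being below all Tibetan ovaries. Some HSP70 genes, such as HSP70.1, have near-identical copies, so their single levels are uncertain. Of 12 immediate-early genes tested 8 were below 0, with a median of -0.54, led by EGR1 (-1.63), JUN (-0.93) and FOS (-1.48), each with an adjusted p of 0.743. EGR1 and FOS overlapped between the breeds and JUN did not. JUN was the 1 of the 12 that was lower without overlap, near the 6.70% of all genes. Without Jintang 2 the differences were -0.81 for FOS and -0.58 for JUN, and for EGR1 Jintang 3 alone against the Tibetan goats gave -0.90. Of 8 glucocorticoid-induced genes 7 were below 0, with a median of -0.23. Without overlap 1 of the 8 was lower and 1 higher, against 6.70% and 3.20% of all genes. SGK1 was at 1.91, ZBTB16 at -1.33 and PDK4 at -1.19, each with an adjusted p of 0.743. PDK4 stood at -0.62 without Jintang 2 and at -1.83 without Jintang 1, and with Jintang 3 as the only Jintang goat SGK1 was at 0.61 and ZBTB16 at -0.59. The 8 of 12 and 7 of 8 genes below 0 stand beside the same 59.0% of all genes. The part of these lists in the PER1 difference was not tested.

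Markers of ovarian cell types differed between the same goats. The 5 smooth muscle markers (ACTA2, MYH11, TAGLN, DES and CNN1) summed to 3440, 1895 and 7445 FPKM in Jintang 1, 2 and 3, against 7502, 3793 and 5026 FPKM in Tibetan 1, 2 and 3, with none at 0 and all 5 below 0 in the breed comparison. Their sum was highest in Tibetan 1 and Jintang 3 and lowest in Jintang 2, as TEF and PER2 were. The 6 luteal markers used summed to 6399, 19700 and 492 FPKM in Jintang 1, 2 and 3, against 358, 542 and 2516 FPKM in Tibetan 1, 2 and 3, with none at 0 and all 6 above 0. Their sums were highest in Jintang 2, Jintang 1 and Tibetan 3, the 3 ovaries with the least DBP and TEF. TIMP1 was the most abundant of the 6 in each ovary, with 5304 FPKM in Jintang 1, 9215 in Jintang 2 and 1298 in Tibetan 3. STAR had 139 FPKM in Jintang 1, 3130 in Jintang 2 and 139 in Tibetan 3. CYP11A1 and SCARB1 were lower in Jintang 1 than in Tibetan 3, while PTGFR and PRLR were higher. Whether each ovary was in the follicular phase was not tested. All 6 myeloid and all 6 stromal markers were also above 0, the myeloid sum reaching 446 FPKM in Jintang 1, and summing to between 33.6 and 118 FPKM in the other goats. Breed medians were 0.79 for 6 endothelial markers, 0.10 for 8 granulosa, -0.31 for 3 theca, 0.28 for 4 oocyte, 0.11 for 4 lymphocyte and -0.66 for 3 surface epithelium markers, and -0.75 for the 1 ciliated tubal marker tested. These medians hide wide spreads within the lists. Granulosa markers ran from -1.98 (INHA) to 1.26 (FSHR) and theca markers from -3.39 (CYP17A1) to 0.23 (LHCGR). CYP17A1 lay between 1.99 FPKM in Jintang 1 and 719 FPKM in Tibetan 3. No erythrocyte marker reached the filter, and no marker of any list passed the limma test. The ovarian markers NR5A1 and FOXL2 were detected in all 6 libraries, but FSHR was at 0 FPKM in Tibetan 1. The oocyte gene GDF9 was between 0.44 and 3.42 FPKM, lowest in Tibetan 1. The 7 oocyte markers found in the data summed to 7.22, 4.33 and 23.7 FPKM in Jintang 1, 2 and 3. In Tibetan 1, 2 and 3 they summed to 0.96, 20.2 and 4.56 FPKM. Tibetan 1 was the lowest ovary, or tied for it, for 6 of the 7, and 2 of them were at 0 there. The part of cell make-up in the clock gene values was not tested.

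The genes most like PER1 and ARNTL over the 6 goats were taken from 9925 genes with an SD of at least 0.3 on the log2 scale. For PER1 these were C2H2orf72, HOXA6, HMCES, OGG1 and CDC42EP2, with Pearson's r from 0.98 to 0.99. HOXA6 had 0.35, 0.17 and 0.73 FPKM in Jintang 1, 2 and 3, and reached the filter only through the Tibetan goats. C2H2orf72 was also low in Jintang 1, 2 and 3, at 0.44, 0.42 and 1.32 FPKM. For ARNTL they were GLIPR2, SIRT7, PARD6B, NUDT5 and CASQ1, with r from 0.98 to 0.99. With 6 points and this many genes such values describe these libraries only. No other gene of the 10 members was among either 5, but CLOCK fell under the SD limit and was not compared. Among the 10 members only, the highest r with PER1 was that of CRY2 (r = 0.81). With ARNTL it was that of CLOCK (r = 0.68), taken without the SD limit.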

How the data were processed

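RNA of 6 goat ovaries, 3 Jintang and 3 Tibetan, was extracted (TRIzol) and sequenced from NEBNext libraries, per the labels' protocols. The authors deposited 1 FPKM table per goat with 17504 genes. RSEM 1.2.0, TopHat2 2.0.10 and Bowtie2 2.1.0 are named in the submitters' processing notes, with no roles. No label or header names the genome build; coordinates and sequences were therefore left out. FPKM is relative within a library, so very abundant genes lower the others (the 10 highest held 7.19% to 9.59%). The file name of Tibetan 2 breaks the pattern of the others, with no reason in the labels.

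Symbols came from a RefSeq table of assembly ARS1.2: 16457 IDs matched by GeneID, 9 by accession and 1038 not. Of 143 entries in 21 lists, 12 matched no gene. The members and lists were chosen with earlier results of these data known. Named genes were all 10 members, the 2 with the smallest p of each clock list, the 3 of each response list, and the 5 most like PER1 and ARNTL; 1 gene that this rule names is not reported here.

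The breed comparison used lmFit and eBayes with trend (limma 3.58.1, R 4.3.3) on log2(FPKM + 1), for genes with at least 1 FPKM in 3 libraries, with Benjamini-Hochberg adjustment over all 13067 genes, a threshold of 0.05 and 2-sided p. Each goat is 1 replicate. The limma p-values set the breed difference against the spread between goats of a breed, which eBayes moderates over all genes. Correlations used exact permutations of 6 goats, whose smallest p is 0.00278, before adjustment over 45 pairs. Relative depth came from the commonest ratio of values between 0.15 and 1 FPKM. Figures used matplotlib 3.10.9. On simulated data with 13067 genes and the spread of these goats, limma found 4%, 62%, 80% and 92% of 50 genes changed by a log2 fold of 1, 2, 3 and 4, in that order. It made 7 false calls in 12867 genes left unchanged. The changed genes were drawn from those with a mean log2(FPKM + 1) above 3. Alternatives were other pseudocounts, filters, scalings and variance models, a replicate block, and libraries left out.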

Additional observations from a re-analysis of the deposited data

How the results depend on the processing

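No clock gene passed the threshold under any alternative run, and PER1 stayed below 0 under all of them. Without Jintang 3, limma called 13 genes of all genes tested higher in Jintang, none of them a clock gene; the other libraries left out gave 0, so the range was 0 to 13, and 0 genes were lower in each case. With 1 library left out, 9 or 10 clock genes were below 0. The ranges were -1.55 to -1.11 for PER1, -0.87 to 0.22 for PER2, -1.01 to -0.16 for PER3, -0.87 to -0.53 for CRY1, -0.64 to -0.17 for CRY2, -0.26 to -0.02 for CLOCK, -0.31 to 0.26 for ARNTL, -1.38 to -0.06 for DBP, -1.15 to -0.42 for TEF, -0.85 to -0.05 for BHLHE41 and -0.0146 to 0.32 for NPAS2. ARNTL turned from -0.06 to 0.0543 with median-ratio scaling. The same scaling moved the median of all genes from -0.10 to 0.02. Leaving out Jintang 1 and Jintang 2 together, chosen after seeing the data, leaves 1 Jintang goat, which is assumed to vary like the others. It left 3 clock genes below 0, with PER2 at 0.60, CRY2 at 0.0592, CLOCK at 0.0595, ARNTL at 0.0143, DBP at 0.53, TEF at 0.13, BHLHE41 at 0.11, NPAS2 at -0.14, PPARA at 0.015 and HUWE1 at 0.0038. The correlation of CRY1 and CLOCK was -0.50 without the 2 farthest libraries, and no pair passed under the alternatives tested. A filter of 5 FPKM kept 7 of the 10 clock genes. Same-numbered goats did not deviate together (r of -0.02, -0.21 and -0.47), and goats of different number had r from -0.34 to 0.45. With 3 goats a breed, such values cannot show whether the numbers stand for a shared batch. With the replicate block 0 genes passed, 581 instead of 806 had an unadjusted p under 0.05, and PER1 had an adjusted p of 0.952. With 3 goats a breed and relative values of unknown depth, the simulated test found 4% of the genes changed by a log2 fold of 1, so differences of the size seen in CRY1, DBP or TEF were mostly not detectable.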
